A study of Mus musculus with 6 samples.

Results

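A set of 10 transcription factors of fat cell formation were described in 3 kinds of sorted mouse adipocytes. They were the nuclear receptor gene Pparg, the C/EBP genes Cebpa, Cebpb and Cebpd, the Kruppel-like factor genes Klf15 and Klf4, the zinc finger gene Zfp423, and Srebf1, Stat5a and Gata3. The members were chosen by gene symbol for their known part in adipogenesis, with earlier results of these data in view, and all 10 were found among 17720 measured genes, on 14 of 43057 probe sets. Gata3 is a repressor of the programme in mouse preadipocytes, so the set holds factors of opposite action.

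Each group had 2 arrays, 1 array for each pooled RNA sample. Bone marrow-derived adipocytes were taken from the gonadal fat of mice that had received marrow from donors carrying a reporter, GFP for the first array and LacZ (beta-galactosidase, seen with the fluorogenic substrate FDG) for the second, and they were collected by flow cytometry. White adipocytes came from gonadal fat and brown adipocytes from the dorsal intrascapular depot, as the labels spell it. All groups shared collagenase digestion, flotation, sorting, pooling of several sorts per sample and amplification of the RNA before labelling. The labels used here give no strain, sex or age, no promoter for the reporters and no conditioning of the transplanted hosts. The samples are labelled biological replicates, with no word on separate animals, so a p-value here reflects only how far these particular samples spread, and part of that may be technical.

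In background terms, fat cell formation runs as a cascade. Hormonal signals that raise cyclic AMP and glucocorticoid activity induce Cebpb and Cebpd in the committed precursor, with Klf4 acting on Cebpb in mouse cell culture, and these factors switch on Pparg and Cebpa. Pparg and Cebpa then activate each other and hold the mature state by driving genes of lipid storage, insulin response and adipokine secretion. Srebf1 adds lipogenesis, Stat5a relays growth hormone and prolactin, Klf15 acts late on glucose and amino acid metabolism, and Zfp423 marks precursors committed to the white lineage in mice.

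Each probe set has a deposited expression value on the log2 scale, so a difference of 1 is a doubling. A gene was represented by its probe set with the highest mean over the 6 arrays. A difference was called where limma's Benjamini-Hochberg adjusted p over all 17720 genes was under 0.05, and the value after ± is limma's standard error (SE, n = 2 arrays per group, all 6 arrays in 1 fit). Depth has no meaning on an array, and the number of arrays limits the precision. A level is not compared between probe sets, since each has its own affinity. Where a gene has a second probe set, its adjusted p comes from another limma fit, with each of 33565 probe sets as its own feature. The 3 comparisons use the same 6 arrays, so each group enters a pair of them and they are not independent of each other.

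The labelled cell types were checked against marker genes. Adiponectin (Adipoq), made by mature adipocytes, was at 12.70 and 11.86 in bone marrow-derived adipocytes, 13.22 and 13.24 in white and 13.01 and 13.15 in brown. Ucp1, the uncoupling protein of brown fat, was at 7.68 and 4.93 in bone marrow-derived, 6.43 and 4.84 in white and 13.58 and 13.53 in brown adipocytes. The mean of 7 adipocyte markers was lower on both bone marrow-derived arrays (11.86 and 11.18) than on the white arrays (12.87 and 13.01) and the brown arrays (12.49 and 12.60). The mean of 10 endothelial markers ran from 11.53 to 12.11 in bone marrow-derived, from 7.50 to 8.58 in white and from 10.54 to 11.07 in brown adipocytes. Endothelial Pecam1 was at 10.98 and 11.91 in bone marrow-derived, 7.80 and 6.66 in white and 10.55 and 10.02 in brown adipocytes. Macrophage list means were 11.20 (GFP) and 8.63 (LacZ) in bone marrow-derived, 11.33 and 9.77 in white and 8.82 and 8.07 in brown adipocytes. Both brown arrays lay below both white arrays. The bone marrow-derived arrays had the widest gap of any group and overlapped white and brown alike. In bulk RNA, fewer cells of a type and less RNA per cell cannot be told apart. The part that these markers have in the differences below was not tested.

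**Figure D1:**
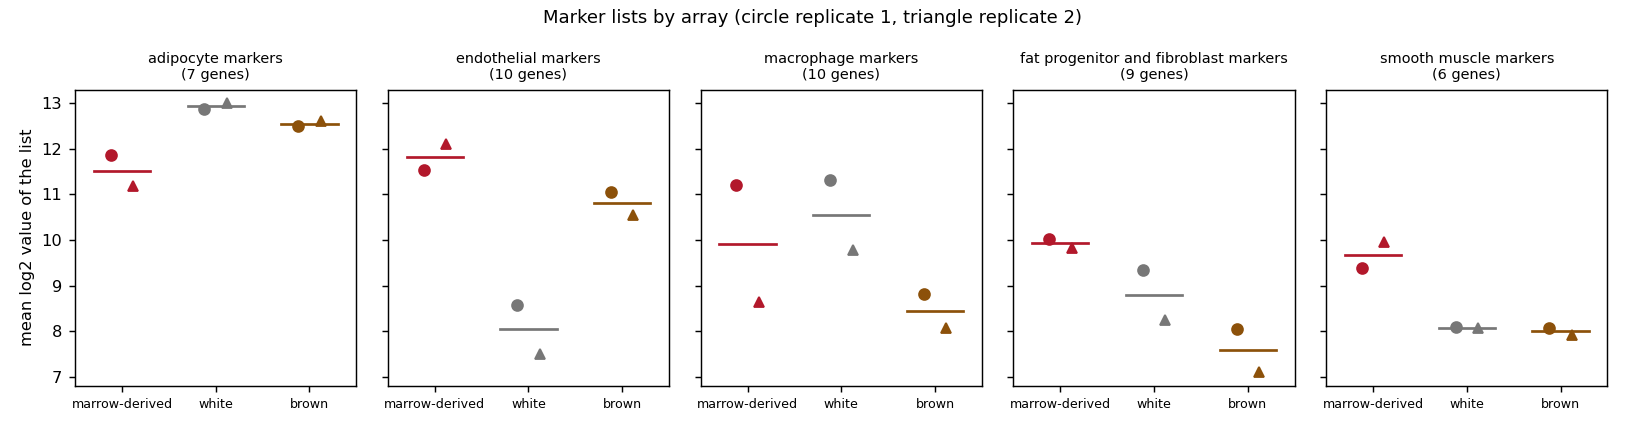
Mean log2 value of 5 marker lists on each array (vertical axis, log2 expression value), in bone marrow-derived, white and brown adipocytes. Circles are replicate 1, triangles replicate 2 and lines group means, and the endothelial list is lowest on the 2 white arrays, at 8.58 and 7.50.

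In each comparison taken alone, most of the 10 factors did not pass the test, and the calls over the 3 comparisons went both ways. Gata3, Klf15, Stat5a, Cebpb, Cebpd and Srebf1 passed in at least 1 comparison, and Pparg, Cebpa, Klf4 and Zfp423 in none. Against white adipocytes, Gata3 rose and Klf15 and Stat5a fell, so 3 of 10 members were called (1 higher, 2 lower), where 25.8% of all genes were called in that comparison (12.2% higher and 13.6% lower). Against brown adipocytes, Cebpd rose and Cebpb, Srebf1 and Stat5a fell, so 4 of 10 were called (1 higher, 3 lower), where 20.4% of all genes were called (8.71% higher and 11.7% lower). Between white and brown adipocytes, Gata3 alone passed and was lower in white (1 of 10), where 9.21% of all genes were called (3.87% higher and 5.34% lower). No member was higher in white by limma's adjusted p, although 3 were at an unadjusted p under 0.05. With 10 members, a single gene moves a share by 10 percentage points, and no test of the set against all genes was made.

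The members' median difference was larger than that of all genes when the sign is left aside. The latter takes in genes of low signal, and the members were chosen with earlier results of these data in view. The sizes are therefore not matched. The median absolute log2 difference of the members was 1.15 between bone marrow-derived and white adipocytes, where that of all genes was 0.45. It was 1.09 between bone marrow-derived and brown adipocytes, where that of all genes was 0.44, and 0.84 between white and brown adipocytes, where that of all genes was 0.32. With sign, the members' medians were -0.22, -0.62 and -0.088 in the same order, and those of all genes were -0.072, 0.024 and 0.020. The arrays of the groups did not overlap for 7, 9 and 7 of the members in these comparisons, where 64.3%, 65% and 62.2% of all genes had no overlap.

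**Figure D2:**
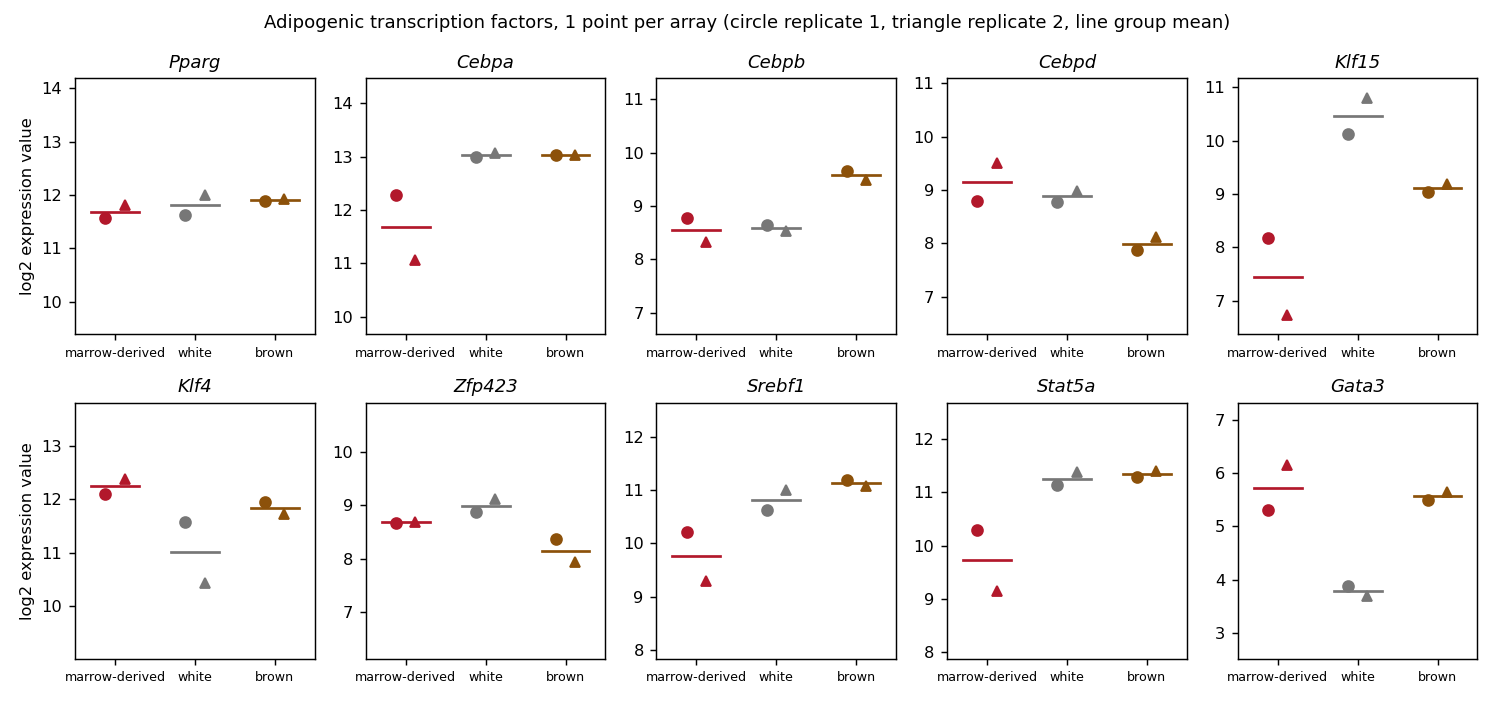
Log2 expression value (vertical axis, spanning the same number of log2 units in every panel) of each of the 10 transcription factors on each array, in bone marrow-derived, white and brown adipocytes. Circles are replicate 1, triangles replicate 2 and lines group means. Pparg spans 0.45 over all 6 arrays, while Klf15 is lowest on the 2 bone marrow-derived arrays, at 8.16 and 6.74.

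Pparg, the receptor without which fat cells do not form, was the steadiest member. It was at 11.56 and 11.81 in bone marrow-derived adipocytes, 11.63 and 12.01 in white and 11.88 and 11.93 in brown. All 6 arrays fell within 0.45 on the log2 scale, the smallest range of any member, and the bone marrow-derived and white arrays overlapped. The difference was -0.13 ± 0.20 between bone marrow-derived and white adipocytes (limma adjusted p = 0.689, 95% interval -0.64 to 0.38). It was -0.22 ± 0.20 between bone marrow-derived and brown adipocytes (limma adjusted p = 0.478, 95% interval -0.73 to 0.29). White and brown adipocytes differed by -0.090 ± 0.20 (limma adjusted p = 0.823, 95% interval -0.60 to 0.42). None of these is a call, and the intervals leave room for changes of either sign. The probe set reports the gene as a whole and does not separate the Pparg1 and Pparg2 isoforms.

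The immediate upstream sequences of 4 members are shown because C/EBP factors, E-box factors and cyclic AMP response factors are the classical inputs of this cascade. They are RefSeq windows of 250 bases that end just before an annotated transcript start, in build GRCm38.p6, read 5′ to 3′ on the plus strand, which is the gene's strand for all 4. The letters searched, on both strands, were TTGCNNAA for C/EBP, CACGTG for the E-box, TGACG for the core of a cyclic AMP response element (CRE) and TATAAA for the TATA box. Capitals mark the matches, none of which overlaps another in these windows. Pparg has 3 annotated starts with a window, and the one at chr6:115421816-115422065 is the most downstream, with C/EBP letters that begin 215 and 16 bases before the start. The other Pparg windows, not shown, hold no C/EBP letters. Cebpa at chr7:35119043-35119292 holds TATA letters 30 bases before the start. Cebpb at chr2:167688665-167688914 holds the CRE core 180, 53 and 7 bases before the start.
Pparg: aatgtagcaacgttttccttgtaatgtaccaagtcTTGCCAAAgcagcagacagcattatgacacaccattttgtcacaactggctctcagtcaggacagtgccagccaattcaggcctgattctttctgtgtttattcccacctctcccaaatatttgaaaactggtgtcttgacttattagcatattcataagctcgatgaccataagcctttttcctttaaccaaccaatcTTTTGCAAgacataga
Cebpa: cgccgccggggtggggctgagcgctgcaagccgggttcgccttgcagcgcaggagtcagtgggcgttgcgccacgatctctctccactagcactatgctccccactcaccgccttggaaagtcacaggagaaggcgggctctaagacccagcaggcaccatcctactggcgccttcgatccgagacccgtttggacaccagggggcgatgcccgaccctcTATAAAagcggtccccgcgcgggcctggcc
Cebpb: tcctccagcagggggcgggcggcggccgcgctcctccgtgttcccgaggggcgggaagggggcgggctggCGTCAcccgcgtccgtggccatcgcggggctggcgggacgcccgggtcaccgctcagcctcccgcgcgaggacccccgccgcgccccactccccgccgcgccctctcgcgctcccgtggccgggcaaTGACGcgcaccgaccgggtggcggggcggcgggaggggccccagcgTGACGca
Windows were found for 9 of the 10 members (15 windows), and none is shown for Cebpd. Among 32851 windows of all genes, C/EBP letters were in 9.6%, the E-box in 6.0%, the CRE core in 17.8% and the TATA letters in 12.4%. Among the 15 windows of the members, C/EBP letters were in 2 (Pparg and Zfp423) and E-boxes in 2 (Klf15 and Klf4). CRE cores were in 3 (Cebpb, Klf15 and Klf4) and TATA letters in 2 (Cebpa and Pparg). A match is a description of the letters and not of a bound site.

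Cebpa, the partner that sustains Pparg and insulin sensitivity, was lower on both bone marrow-derived arrays but did not pass the test. It was at 12.29 and 11.06 in bone marrow-derived adipocytes, 13.00 and 13.08 in white and 13.04 and 13.03 in brown. The bone marrow-derived arrays lay below all others and stood 1.23 apart, while the white and brown arrays overlapped within 0.08. The difference was -1.36 ± 0.41 against white adipocytes (limma adjusted p = 0.0627, 95% interval -2.38 to -0.34) and -1.36 ± 0.41 against brown adipocytes (limma adjusted p = 0.0722, same interval to 2 decimals). Both differences were called without the GFP array (-1.98 and -1.97) but in no other fit with an array left out. Without the LacZ array they were -0.75 and -0.74, and in either case the bone marrow-derived group rests on 1 array. With a mean-variance trend in the moderation, on all arrays, both were called at limma adjusted p = 0.0350 and 0.0409. Whether Cebpa passes thus depends on the arrays kept and on the variance model. White and brown adipocytes differed by 0.0036 ± 0.41 (limma adjusted p = 0.997, 95% interval -1.02 to 1.02), a value whose sign turns when arrays are centred on their medians.

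Cebpb and Cebpd, the early inducers of the cascade, moved in opposite directions against brown adipocytes. Cebpb was at 8.78 and 8.32 in bone marrow-derived adipocytes, 8.65 and 8.53 in white and 9.67 and 9.48 in brown. Both gonadal groups overlapped and both lay below the brown arrays. Cebpb fell by 1.02 ± 0.22 on the log2 scale in bone marrow-derived relative to brown adipocytes (2.03-fold, limma adjusted p = 0.0302). White adipocytes stood -0.98 ± 0.22 from brown (limma adjusted p = 0.0531), just outside the threshold, and bone marrow-derived adipocytes -0.040 ± 0.22 from white (limma adjusted p = 0.918, 95% interval -0.58 to 0.50). A second Cebpb probe set, near the array medians, read 4.87 and 4.90 in bone marrow-derived, 5.41 and 5.66 in white and 5.33 and 5.66 in brown adipocytes. There the white and brown arrays overlapped, the bone marrow-derived arrays lay below both groups, and no difference was called (limma adjusted p = 0.0706 against white, 0.0955 against brown and 0.933 for white against brown).

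Cebpd was at 8.80 and 9.51 in bone marrow-derived adipocytes, 8.77 and 8.99 in white and 7.88 and 8.11 in brown. The bone marrow-derived and white arrays overlapped, and both groups lay above the brown arrays. Cebpd rose by 1.16 ± 0.28 in bone marrow-derived relative to brown adipocytes (2.24-fold, limma adjusted p = 0.0415). It differed by 0.27 ± 0.28 between bone marrow-derived and white (limma adjusted p = 0.532, 95% interval -0.43 to 0.98) and by 0.89 ± 0.28 between white and brown (limma adjusted p = 0.120). The second Cebpd probe set kept this order, at 8.96 and 9.55 in bone marrow-derived, 8.66 and 9.03 in white and 7.82 and 8.02 in brown adipocytes. Its difference of 1.34 between bone marrow-derived and brown adipocytes was called as well (limma adjusted p = 0.0267). The calls of both genes were lost when any array other than the GFP one was left out, with values of -1.25 to -0.79 for Cebpb and 0.81 to 1.51 for Cebpd over the 6 fits.

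Klf15, a late factor that acts on Slc2a4 and on amino acid breakdown, had the largest difference of any member. It was at 8.16 and 6.74 in bone marrow-derived adipocytes, 10.13 and 10.79 in white and 9.04 and 9.18 in brown. The 3 groups did not overlap, with white highest, brown next and bone marrow-derived lowest. Klf15 fell by 3.01 ± 0.50 on the log2 scale in bone marrow-derived relative to white adipocytes, an 8.05-fold difference (limma adjusted p = 0.0136). The difference from brown adipocytes was -1.66 ± 0.50 (limma adjusted p = 0.0754, 95% interval -2.93 to -0.39), and white stood 1.35 ± 0.50 above brown (limma adjusted p = 0.172, 95% interval 0.078 to 2.62), so those neighbours in the order were not told apart by the test. The call against white was lost without white replicate 2 (-2.68), and differences ran from -3.72 to -2.30 over the fits with an array left out. Both fits without a brown array took no array from this comparison and gave the same result (-3.01). The bone marrow-derived arrays were 1.42 apart, the widest gap within that group among the members. The adipocyte marker list was also lowest on the bone marrow-derived arrays, as given above.

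The sequence before the Klf15 start, at chr6:90462326-90462575, holds 2 E-boxes, 228 and 172 bases before the start, and 2 CRE cores, 78 and 6 bases before it. It is shown because Klf15 carried the largest difference and was 1 of 2 members with both kinds of letters.
Klf15: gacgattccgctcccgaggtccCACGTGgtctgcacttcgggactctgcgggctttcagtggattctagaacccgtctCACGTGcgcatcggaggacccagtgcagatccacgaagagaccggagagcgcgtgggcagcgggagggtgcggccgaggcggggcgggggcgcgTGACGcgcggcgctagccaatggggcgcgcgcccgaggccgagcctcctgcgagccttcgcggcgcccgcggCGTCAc

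Klf4, which acts early on Cebpb in mouse cells and is also known from endothelium and from monocytes, was at 12.11 and 12.38 in bone marrow-derived adipocytes, 11.57 and 10.43 in white and 11.95 and 11.72 in brown. The bone marrow-derived arrays lay above all others, and the white arrays lay lowest and 1.14 apart. The difference of 1.24 ± 0.39 from white adipocytes was not called (limma adjusted p = 0.0742, 95% interval 0.25 to 2.23), nor was that of 0.41 ± 0.39 from brown (limma adjusted p = 0.495, 95% interval -0.58 to 1.40). White adipocytes stood -0.83 ± 0.39 from brown (limma adjusted p = 0.262, 95% interval -1.82 to 0.16). The second Klf4 probe set, at 12.21 and 12.40 in bone marrow-derived, 11.33 and 10.22 in white and 11.73 and 11.59 in brown adipocytes, gave a call for the first of these (1.53, limma adjusted p = 0.0357). Both probe sets thus had the same order of arrays, with 1 on each side of the threshold. The order of the groups was also that of the endothelial marker list, and its part in the Klf4 values was not tested.

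Zfp423, the factor of white precursor commitment, was at 8.67 and 8.69 in bone marrow-derived adipocytes, 8.87 and 9.12 in white and 8.37 and 7.93 in brown. No groups overlapped, and the order was white, bone marrow-derived, brown. White adipocytes exceeded brown by 0.84 ± 0.21 (limma adjusted p = 0.0727, 95% interval 0.31 to 1.38), which was not called. Bone marrow-derived adipocytes stood -0.31 ± 0.21 from white (limma adjusted p = 0.348, 95% interval -0.84 to 0.22) and 0.53 ± 0.21 from brown (limma adjusted p = 0.140, 95% interval -0.0017 to 1.07).

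Srebf1, the activator of fatty acid synthesis genes, was at 10.22 and 9.29 in bone marrow-derived adipocytes, 10.62 and 11.01 in white and 11.18 and 11.08 in brown. The groups did not overlap, with bone marrow-derived lowest and brown highest. Srebf1 fell by 1.37 ± 0.34 on the log2 scale in bone marrow-derived relative to brown adipocytes (2.59-fold, limma adjusted p = 0.0465). The difference from white adipocytes was -1.06 ± 0.34 (limma adjusted p = 0.0787, 95% interval -1.92 to -0.19), and white stood -0.31 ± 0.34 from brown (limma adjusted p = 0.618, 95% interval -1.18 to 0.55). The call against brown held only in the fit without the GFP array (-1.84, limma adjusted p = 0.0151) and was lost in the other 5, at -1.42 to -0.91. The probe set does not separate the SREBP1a and SREBP1c isoforms.

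Stat5a, which carries growth hormone and prolactin signals to the nucleus, was at 10.29 and 9.16 in bone marrow-derived adipocytes, 11.13 and 11.38 in white and 11.28 and 11.40 in brown. The bone marrow-derived arrays lay below all others, and the white and brown arrays overlapped. Stat5a fell by 1.53 ± 0.39 on the log2 scale in bone marrow-derived relative to white adipocytes (2.89-fold, limma adjusted p = 0.0402). It fell by 1.62 ± 0.39 relative to brown (3.06-fold, limma adjusted p = 0.0411), while white stood -0.086 ± 0.39 from brown (limma adjusted p = 0.918). It was the only member called in both comparisons of bone marrow-derived adipocytes, which share those arrays. A second probe set of low signal read 3.46 and 3.32 in bone marrow-derived, 5.75 and 6.28 in white and 4.86 and 5.60 in brown adipocytes, with the bone marrow-derived arrays lowest. Those 2 readings lie near the lower quartile of their arrays (3.41 and 3.46) and there are no detection calls, so no fold is read from this probe set. The calls of the main probe set were lost when any white or brown array was left out, with differences of -2.10 to -0.96 against white and -2.18 to -1.05 against brown over the 6 fits, and were kept without either bone marrow-derived array.

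The close paralogue Stat5b, which answers the same hormones, was not called. Stat5b was at 10.37 and 10.22 in bone marrow-derived adipocytes, 9.92 and 10.05 in white and 10.14 and 10.16 in brown. Its differences were 0.30 between bone marrow-derived and white (limma adjusted p = 0.230) and 0.14 between bone marrow-derived and brown (limma adjusted p = 0.562). The difference between the responses of the paralogues was not tested.

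Gata3, known as a brake on Pparg in mouse preadipocytes and as a master factor of T cells and type 2 innate lymphoid cells, was the member called higher against white. It was at 5.30 and 6.14 in bone marrow-derived adipocytes, 3.88 and 3.69 in white and 5.49 and 5.64 in brown. The bone marrow-derived and brown arrays overlapped, and the white arrays lay below both groups, close to the lower quartile of all probe sets on those arrays (3.46 and 3.49), where array values compress differences. Gata3 rose by 1.93 ± 0.31 in bone marrow-derived relative to white adipocytes (3.82-fold, limma adjusted p = 0.0117). Gata3 fell by 1.78 ± 0.31 on the log2 scale in white relative to brown adipocytes (3.43-fold, limma adjusted p = 0.0290), and bone marrow-derived stood 0.16 ± 0.31 from brown (limma adjusted p = 0.747, 95% interval -0.61 to 0.93).

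Markers of other cells that express Gata3 were set beside it. The mean of 7 T cell and type 2 innate lymphoid markers was 5.59 and 5.27 in bone marrow-derived, 5.81 and 4.87 in white and 5.32 and 4.98 in brown adipocytes, so those groups overlapped, and 1 of the 7, Cd247 of the T cell receptor complex, rose against white (3.35, limma adjusted p = 0.0184). T cell Cd3e was at 6.33 and 5.69 in bone marrow-derived, 5.55 and 5.07 in white and 5.24 and 5.62 in brown adipocytes. The endothelial list, in contrast, was lowest on both white arrays, as Gata3 was, with 10 of 10 of its genes raised in bone marrow-derived over white adipocytes and 8 of 10 lower in white than in brown. The second of these counts was 0 without either brown array, with 8 and 9 at limma's unadjusted p under 0.05. The part of either list in the Gata3 values was not tested. The call between bone marrow-derived and white adipocytes was lost without white replicate 2 (1.84), with differences of 1.52 to 2.35 over the fits with an array left out. Both fits without a brown array took no array from that comparison and gave the same result (1.93). The call between white and brown was lost when any white or brown array was left out (-1.87 to -1.68). It was kept only without a bone marrow-derived array, which takes no array from that comparison.

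**Figure D3:**
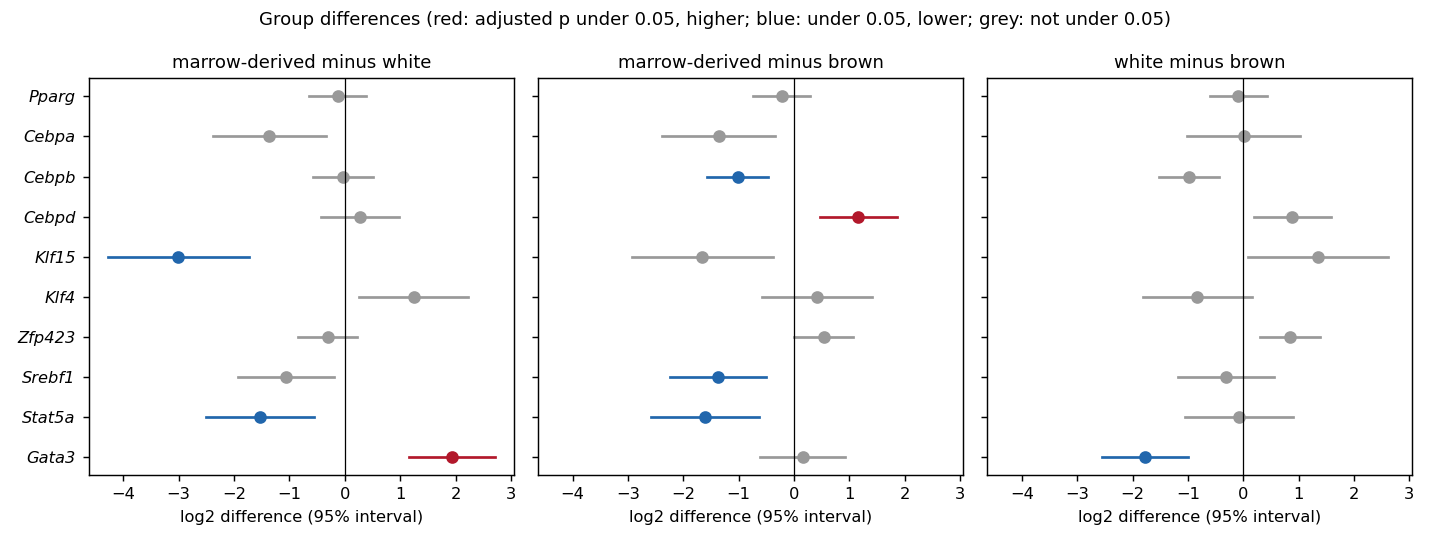
Log2 difference (horizontal axis) of each of the 10 transcription factors in the 3 comparisons, with 95% intervals. Red and blue mark an adjusted p under 0.05, as for Klf15 at -3.01 and Gata3 at 1.93 between bone marrow-derived and white adipocytes, and grey marks members that did not pass.

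**Figure D4:**
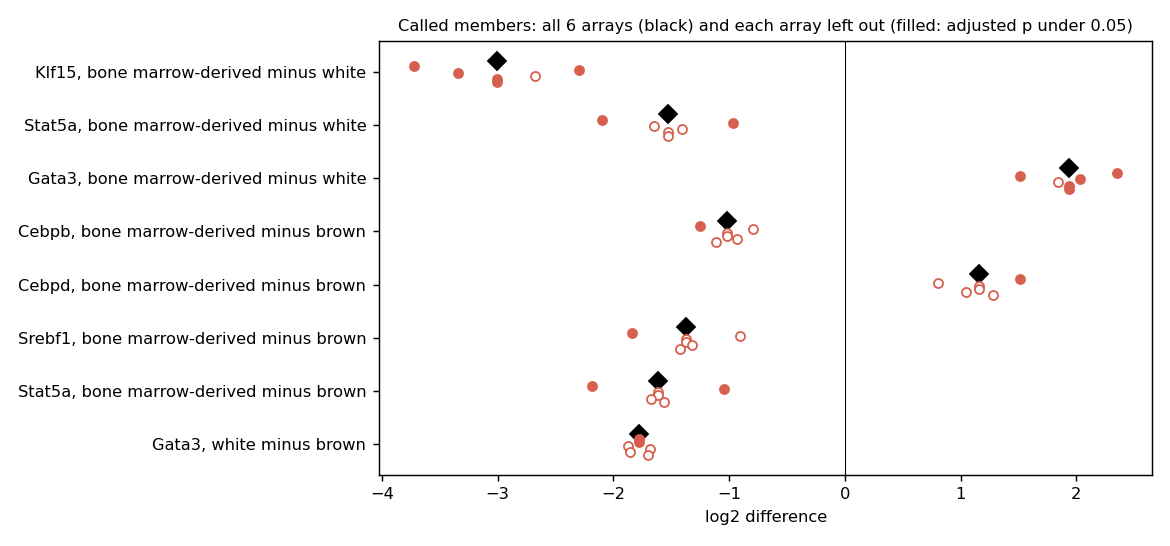
Log2 difference (horizontal axis) of the 8 member calls with all 6 arrays (black diamonds) and with each array left out in turn (circles, filled where the adjusted p stayed under 0.05). Every direction is kept. Klf15 and Gata3 between bone marrow-derived and white adipocytes lose the call only without white replicate 2, and the others keep it in 1 or 2 of 6 fits. Leaving out an array of the group outside a comparison takes no array from it, so both such fits give the same result.

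The patterns of the members over the 6 arrays were compared after each gene's own mean was subtracted. Cebpa, Stat5a and Srebf1 shared 1 pattern, with both bone marrow-derived arrays low and the LacZ array lowest, and the root mean square distance from Cebpa was 0.13 for Stat5a and 0.20 for Srebf1 on the log2 scale. Over all measured genes, those nearest to Stat5a were Sik2 (0.11), a salt-inducible kinase of adipocytes, Mdrl (0.12) and Acot6 (0.12). Those nearest to Srebf1 were Mif4gd (0.079), the mitochondrial import gene Timm50 (0.11) and Mrm2 (0.13). Nearest to Klf15 were Nnmt (0.21), the nicotinamide N-methyltransferase of fat, Map9 (0.22) and Emc9 (0.23), and nearest to Gata3 were Atcayos (0.11), Stmn2 (0.11) and Tcim (0.18). Nearest to Cebpb were Chrnb2 (0.081), Hnf4g (0.11) and the complex I gene Ndufs8 (0.11), and nearest to Cebpd were Cyb561 (0.074), the growth factor gene Pdgfa (0.096) and Spred3 (0.16). The distances over 6 arrays are a description.

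Genes that Pparg is known to drive were lower in bone marrow-derived adipocytes in part of the list, while Pparg itself was not called. Of 15 measured PPARG target genes, 5 fell against white adipocytes (median -1.25) and 7 fell against brown (median -1.64), and none rose by limma's adjusted p or at an unadjusted p under 0.05. By comparison, 13.6% of all genes fell and 12.2% rose against white, and 11.7% fell and 8.71% rose against brown. Against white, the lipid droplet protein Plin4 fell by 2.55 ± 0.54 on the log2 scale (limma adjusted p = 0.0247), the insulin-regulated glucose transporter Slc2a4 by 2.25 ± 0.23 (limma adjusted p = 0.00492) and hormone-sensitive lipase Lipe by 1.90 ± 0.23 (limma adjusted p = 0.00661). Slc2a4 was at 9.78 and 9.32 in bone marrow-derived adipocytes, 11.70 and 11.91 in white and 12.07 and 12.34 in brown, so the bone marrow-derived arrays lay below all others. Against brown, Ucp1 fell by 7.25 ± 0.98 (limma adjusted p = 0.0101), the droplet protein Cidea fell by 7.05 ± 1.57 (limma adjusted p = 0.0346) and the acyltransferase Agpat2 by 3.15 ± 0.75 (limma adjusted p = 0.0412). Ucp1 and Cidea are also brown adipocyte markers, and low Ucp1 was not particular to bone marrow-derived adipocytes, as its white values above show. The mean of 6 brown adipocyte markers was 6.32 and 4.14 in bone marrow-derived, 6.81 and 6.42 in white and 11.14 and 11.56 in brown adipocytes. Leaving out 1 array moved these counts between 2 and 10 against white and between 0 and 10 against brown, with the lowest counts without white replicate 2 and without brown replicate 2 and the highest without the GFP array. At an unadjusted p under 0.05 limma gave 7 lower against brown where the adjusted count was 0.

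Of 13 measured cofactors of PPARG, 3 rose and 3 fell against white and 3 fell against brown, where 12.2% of all genes rose and 13.6% fell against white and 11.7% fell against brown. The coactivator Ppargc1a fell by 3.31 ± 0.47 against white (limma adjusted p = 0.00907) and by 5.14 ± 0.47 against brown (limma adjusted p = 0.00415). Lpin1, a phosphatase and coactivator, fell by 1.56 ± 0.41 against white (limma adjusted p = 0.0444) and by 2.00 ± 0.41 against brown (limma adjusted p = 0.0278). Prdm16, a brown and beige fat regulator, rose by 1.36 ± 0.36 against white (limma adjusted p = 0.0463), and Ppargc1b fell by 3.67 ± 0.19 against brown (limma adjusted p = 0.00187). Without each array in turn, 0 to 2 of the list were higher and 1 to 2 lower against white, the 0 (3 at limma's unadjusted p under 0.05) without the LacZ array or white replicate 2. The count lower against brown was 1 to 3, lowest without brown replicate 2.

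Of 13 measured C/EBP target genes, 6 fell and 1 rose in bone marrow-derived relative to white adipocytes (median -1.98). Over all genes, 13.6% fell and 12.2% rose there, and 11.7% fell and 8.71% rose against brown. The acute-phase genes led against white, with Serpina3n falling by 4.60 ± 0.53 (limma adjusted p = 0.00634). The lipocalin Lcn2 differed by -4.10 ± 0.58 (limma adjusted p = 0.00908), and haptoglobin Hp fell by 3.12 ± 0.22 (limma adjusted p = 0.00352). Against brown, 3 fell and 1 rose (median -0.80), the cytokine Il6 rising by 4.26 ± 0.66 (limma adjusted p = 0.014) and Hp falling by 2.51 ± 0.22 (limma adjusted p = 0.00389). Lcn2 and Serpina3n were also higher in white than in brown adipocytes (4.55 and 3.19, limma adjusted p = 0.0154 and 0.0273). In that comparison 3 of 13 rose, where 3.87% of all genes did. The counts lower in bone marrow-derived adipocytes ran from 5 to 10 against white and from 0 to 6 against brown with 1 array left out, the highest without the GFP array in both and the 0 (4 at limma's unadjusted p under 0.05) without brown replicate 2. The 3 higher in white than in brown became 0 without either brown array, with 3 at an unadjusted p under 0.05.

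Of 9 measured KLF15 target genes, 6 fell against white (median -2.25) and 8 fell against brown (median -2.23). For all genes, the shares lower were 13.6% against white, 11.7% against brown and 5.34% in white minus brown. Proline dehydrogenase Prodh fell by 3.40 ± 0.30 (limma adjusted p = 0.00395), alanine transaminase Gpt fell by 3.24 ± 0.47 (limma adjusted p = 0.00968) and the branched-chain keto acid dehydrogenase subunit Bckdhb by 2.65 ± 0.23 (limma adjusted p = 0.00386) in bone marrow-derived relative to white adipocytes. Bckdhb also fell by 3.20 ± 0.23 relative to brown (limma adjusted p = 0.00272), a comparison in which Klf15 itself was not called. Between white and brown adipocytes, where Klf15 differed by 1.35 without a call, 1 of the 9 was called, lower in white (median -0.40). Leaving out 1 array gave 4 to 7 against white and 1 to 8 against brown, with 3 without brown replicate 1 and 1 without brown replicate 2. Slc2a4 and Lpin1 stand in this list and in others, so the list counts are not separate evidence.

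Of 20 measured genes of the SREBP1 pathway, 5 fell and 2 rose against white (median -0.77) and 9 fell against brown (median -1.04). All genes had shares of 13.6% lower and 12.2% higher against white, 11.7% lower against brown and 5.34% lower in white minus brown. The lipid remodelling enzyme Pnpla3 was at 6.07 and 4.85 in bone marrow-derived adipocytes, 9.08 and 10.58 in white and 9.83 and 10.41 in brown, and the bone marrow-derived arrays lay below all others. It fell by 4.37 ± 0.64 against white (limma adjusted p = 0.00965) and by 4.66 ± 0.64 against brown (limma adjusted p = 0.0103). Mlxipl, which encodes the carbohydrate-responsive partner ChREBP, fell by 3.22 ± 0.60 against white (limma adjusted p = 0.0179) and by 4.68 ± 0.60 against brown (limma adjusted p = 0.00883). Insig2, a retention factor of SREBP, fell by 1.58 ± 0.24 against white (limma adjusted p = 0.0106), and the elongase Elovl6 by 4.05 ± 0.97 against brown (limma adjusted p = 0.0414). Between white and brown, 1 fell, the carboxylase Acacb (-2.59, limma adjusted p = 0.0339). Leaving out 1 array gave 1 to 10 lower against white, lowest without white replicate 2, and 0 to 11 against brown, lowest without either brown array (10 at limma's unadjusted p under 0.05 in each).

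Genes of the STAT5 route did not move one way. Of 11 measured, 4 rose and 3 fell against white (median -0.72) and 2 rose and 3 fell against brown (median 0.21). The shares of all genes were 12.2% and 13.6% against white, and 8.71% and 11.7% against brown, in the same order. In white minus brown, 5.34% of all genes were lower. Socs2, a feedback inhibitor that STAT5 induces, was at 11.32 and 11.53 in bone marrow-derived adipocytes, 7.82 and 7.17 in white and 9.74 and 9.76 in brown, an order opposite to that of Stat5a for the bone marrow-derived cells. Socs2 rose by 3.93 ± 0.25 against white (limma adjusted p = 0.00352) and by 1.68 ± 0.25 against brown (limma adjusted p = 0.0136). Cish, another feedback inhibitor, rose by 1.67 ± 0.29 against white (limma adjusted p = 0.0142), whereas the oxidase Aox1 fell by 1.87 ± 0.20 (limma adjusted p = 0.00562). Both inhibitors were lower in white than in brown adipocytes (-2.74 for Cish and -2.26 for Socs2, limma adjusted p = 0.0114 and 0.0125). Without either brown array, limma called 0 of the 11 lower against brown (3 at an unadjusted p under 0.05), and without white replicate 2, 1 against white. Without brown replicate 1 or brown replicate 2, 0 were called higher against brown (2 in each at limma's unadjusted p under 0.05) and 0 lower in white than in brown (2 and 3 at an unadjusted p under 0.05).

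**Figure D5:**
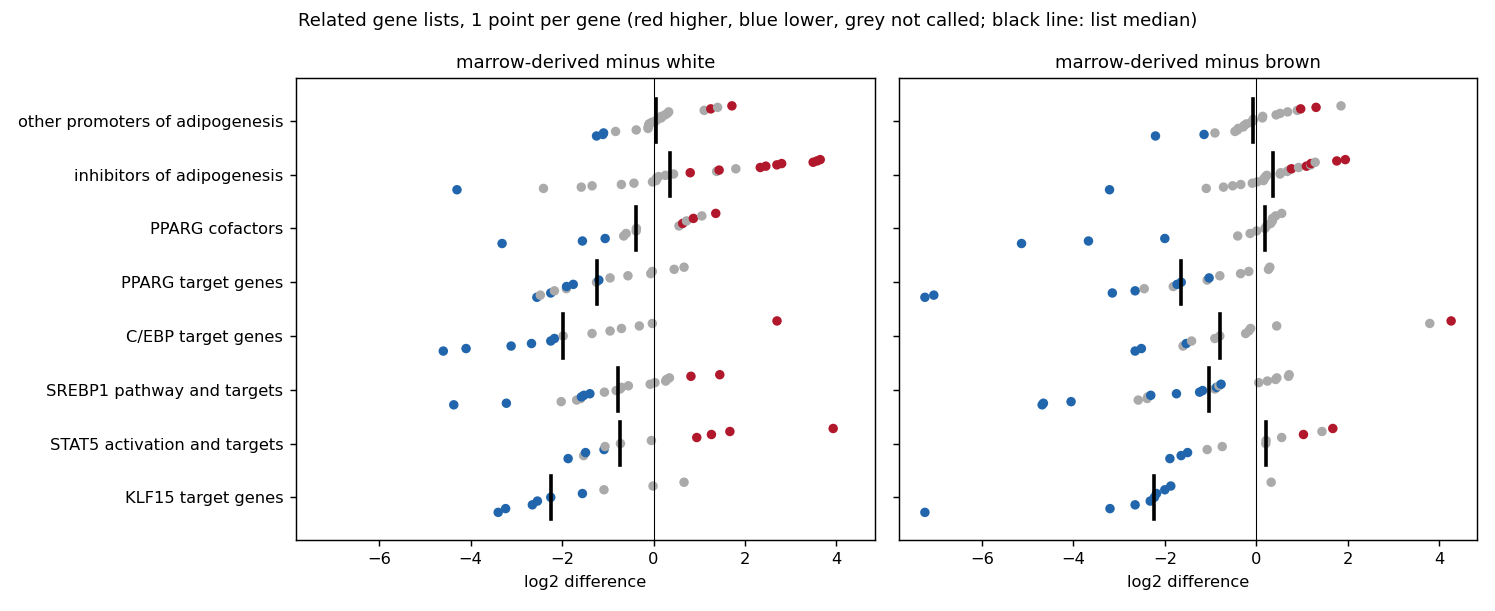
Log2 difference (horizontal axis) of each measured gene in 8 lists of related genes, 1 point per gene, for bone marrow-derived minus white and bone marrow-derived minus brown adipocytes. Red points rose, blue points fell, grey points were not called and black lines are list medians, such as -2.25 and -2.23 for KLF15 target genes.

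Among 24 measured inhibitors of adipogenesis, 9 rose and 1 fell in bone marrow-derived relative to white adipocytes (median 0.35), and 5 rose and 1 fell relative to brown (median 0.38). Set beside these, 12.2% of all genes rose and 13.6% fell against white, and 8.71% rose and 11.7% fell against brown. In white minus brown, 1 inhibitor was higher and 5 were lower, where 3.87% and 5.34% of all genes were. The pseudokinase gene Trib2 was at 11.41 and 11.66 in bone marrow-derived adipocytes, 8.31 and 7.45 in white and 10.83 and 10.80 in brown, with the white arrays lowest. Trib2 rose by 3.65 ± 0.31 against white (limma adjusted p = 0.00386) and the Notch effector Hes1 by 3.58 ± 0.44 (limma adjusted p = 0.00688). The exception Wnt5a, a secreted Wnt ligand, was at 5.62 and 4.12 in bone marrow-derived adipocytes, 9.13 and 9.22 in white and 7.87 and 8.30 in brown. Wnt5a fell by 4.30 ± 0.50 against white (limma adjusted p = 0.00634) and by 3.21 ± 0.50 against brown (limma adjusted p = 0.0144). Zfp521, a zinc finger antagonist of Zfp423 and Ebf factors in mice, rose by 1.95 ± 0.40 against brown (limma adjusted p = 0.0283).

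Gata2, the paralogue that shares the preadipocyte role of Gata3 in mice, was lower in white than in brown adipocytes by 3.33 ± 0.42 (limma adjusted p = 0.0151). Gata2 was at 10.34 and 11.11 in bone marrow-derived adipocytes, 7.71 and 6.75 in white and 10.74 and 10.39 in brown, and the bone marrow-derived and brown arrays overlapped as those of Gata3 did. Its difference between bone marrow-derived and white adipocytes, 3.49 ± 0.42 (limma adjusted p = 0.00668), is given after its values were seen. Gata2 is also a known factor of endothelium, whose marker list has the same order of groups. The count of inhibitors higher against white was 8 to 9 with any 1 array left out, while that against brown was 0 to 4, at 0 without the LacZ array or either brown array (5, 6 and 5 at limma's unadjusted p under 0.05 without the LacZ array, brown replicate 1 and brown replicate 2). Those lower in white than in brown, Gata2 among them, numbered 5 with all arrays and 0 without brown replicate 1 or brown replicate 2 (5 and 8 at limma's unadjusted p under 0.05). Wnt5a was the 1 inhibitor lower against brown, and 0 were called without either brown array (1 at limma's unadjusted p under 0.05 in each).

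Among 21 measured promoters of adipogenesis outside the set, 2 rose and 3 fell against white (median 0.048), and 2 rose and 2 fell against brown (median -0.070), where 12.2% of all genes rose and 13.6% fell against white and 8.71% rose and 11.7% fell against brown. Ebf3, of the early B cell factor family, rose by 1.72 ± 0.18 against white (limma adjusted p = 0.00501), and the cyclic AMP response factor Creb1 rose by 1.25 ± 0.19 (limma adjusted p = 0.0103). Without white replicate 2, limma called 0 of the 21 lower against white (3 at an unadjusted p under 0.05). Against brown, 0 were called higher without the LacZ array, brown replicate 1 or brown replicate 2 (4, 4 and 2 at limma's unadjusted p under 0.05), and 0 lower without brown replicate 2 (2 at an unadjusted p under 0.05). Rxra, the partner of PPARG on DNA, fell by 1.25 ± 0.22 against white (limma adjusted p = 0.016), and its relative Rxrb fell by 1.14 ± 0.26 against brown (limma adjusted p = 0.0353). The estrogen-related receptor Esrra fell by 2.20 ± 0.20 against brown (limma adjusted p = 0.00407).

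Of 12 measured glucocorticoid-induced genes, which belong to the signal upstream of Cebpd, 1 rose and 1 fell against white and 1 fell against brown. Hsd11b1, which regenerates active glucocorticoid in fat, fell by 2.96 ± 0.18 against white (limma adjusted p = 0.00352) and by 3.04 ± 0.18 against brown (limma adjusted p = 0.00206). Of 16 immediate early genes, which tissue dissociation induces and which share the early hours of adipogenic induction with Cebpb, Cebpd and Klf4, 2 rose against white (Egr3 by 2.78 ± 0.63, limma adjusted p = 0.03, and Ier3 by 1.03 ± 0.16, limma adjusted p = 0.0107). Ier3 was the 1 that rose against brown (1.06 ± 0.16, limma adjusted p = 0.0126). Beside both lists, 12.2% of all genes rose and 13.6% fell against white, and 8.71% rose and 11.7% fell against brown. The list mean was 11.56 and 12.00 in bone marrow-derived, 11.29 and 10.98 in white and 11.54 and 11.26 in brown adipocytes, and its part in the values of Cebpd and Klf4 was not tested. With 1 array left out, the immediate early genes called higher against white ran from 0 without white replicate 2 (2 at limma's unadjusted p under 0.05) to 5 without the GFP array. Those against brown numbered 0 without brown replicate 1 or brown replicate 2 (2 and 1 at limma's unadjusted p under 0.05) and 2 without the GFP array. The glucocorticoid-induced genes lower against white numbered 5 without the GFP array. The 1 higher against white was lost without either brown array, without white replicate 2 and with the LacZ array left out (1 at limma's unadjusted p under 0.05 in each).

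The other cell types' markers moved as follows beside these groups. As background, 12.2% of all genes rose and 13.6% fell against white, and 8.71% rose and 11.7% fell against brown. All 10 endothelial markers rose against white (median 3.56), led by Tie1 (4.60), Cdh5 (4.51) and Pecam1 (4.22), and this count was 10 with any array left out. Against brown 1 of the 10 rose, Vwf (2.54, limma adjusted p = 0.0203). Of 9 fat progenitor and fibroblast markers, 2 rose against white and 4 against brown, with Pdgfrb 3.15 and Cd34 2.98 above white and Dcn 3.83, Dpp4 3.81 and Col1a1 2.68 above brown. Of 6 smooth muscle markers, 4 rose against white and 3 against brown, with Myh11 at 3.93 and 3.58. No macrophage marker was called between bone marrow-derived and either other group by limma's adjusted p or at an unadjusted p under 0.05. Cd68 differed by -1.04 from white (limma adjusted p = 0.511). The macrophage list median was -0.66 against white and 1.56 against brown. Its means in the bone marrow-derived group were far apart (GFP 11.20, LacZ 8.63), so the lack of calls does not show equal macrophage RNA. Of 7 adipocyte markers, 3 fell against each group, with Lep and Lipe lower in both. Without the GFP array 6 of them fell against white, and without either brown array limma called 0 against brown (3 at an unadjusted p under 0.05). The counts of fibroblast and smooth muscle markers higher than brown ran from 1 to 8 and from 0 to 3 with an array left out, at 8 without either white array and at 1 and 0 without brown replicate 2 (3 smooth muscle markers at limma's unadjusted p under 0.05).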

How the data were processed

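RNA of sorted adipocytes was hybridised to 1-colour oligonucleotide arrays, 1 per sample. The authors deposited 1 table of log2 values, a column per array and a row per probe set. The submitters' processing notes name RMA and Partek, without version, role or order, and no detection calls are given. The log base was taken from the values (1.67 to 13.97, array medians 5.46 to 5.72). A bound for dim probe sets is therefore not given.

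The platform annotation gave 1 gene symbol to 33565 of the 43057 probe sets and several to 857, and 8635 are unnamed here. Of those with 1, 33376 matched RefSeq gene IDs (GRCm38.p6), and 0 symbols changed. Probe sets with 1 symbol gave 17720 genes, each by its probe set with the highest mean over 6 arrays. The 3 group means were fitted in 1 model with limma 3.58.1 in R 4.3.3, with empirical Bayes moderation (3 residual and 2.35 prior degrees of freedom), two-sided tests and Benjamini-Hochberg adjustment over all genes. The code was tested on simulated data. Groups came from the labels.

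The members and the gene lists were chosen with earlier results of these data known. Named genes are all 10 members, the 3 called genes of a list that differed most (1 gene, as a value, where none was called), the 3 genes nearest each called member, and set marker genes. Some of these are left out of the text for length, and Plin1 was not analysed here. Deviations of same-numbered samples correlated at 0.21 between bone marrow-derived and white and -0.0038 between bone marrow-derived and brown adipocytes, over 17720 genes. Between white and brown adipocytes the correlation was 0.28. The labels do not say what a shared number means, and the main fit did not take the numbers as pairs. With a replicate block, the calls of Stat5a and Srebf1 were lost, as given below. Promoter sequences are RefSeq's (GRCm38.p6). Alternatives were median centring, a filter on low values, probe set rules, moderation, array weights, 2-group fits, a replicate block and each array left out, the last also for the gene lists, which was added after the data were seen.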

Additional observations from a re-analysis of the deposited data

How the results depend on the processing

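Of 450 member results under alternatives, 372 kept direction and side of the threshold, 46 lost the call, 21 gained one and 11 turned sign. Only a result called at first can lose a call, so the 372 do not measure how steady the calls are. Of 15 alternatives each, Klf15 and Gata3 in bone marrow-derived minus white lost the call in 2. Gata3 in white minus brown lost it in 5, and each of the other called results in 7 or 8. The sign turned for small differences. In white minus brown, Cebpa was -0.053 with arrays centred on the median, -0.035 without white replicate 2 and -0.0022 without brown replicate 2 (-0.035 to 0.042 over the arrays left out), and Stat5a was 0.35 with the mean of all probe sets and 0.037 without white replicate 1 (-0.21 to 0.037). Pparg in white minus brown was 0.10 without white replicate 1 (-0.28 to 0.10). In bone marrow-derived minus white, Cebpb was 0.19 with the LacZ array left out and 0.021 without white replicate 1 (-0.27 to 0.19), Cebpd -0.078 without the LacZ array (-0.078 to 0.63) and Pparg 0.060 without white replicate 2 (-0.32 to 0.060). Gata3 in bone marrow-derived minus brown was -0.26 without the LacZ array (-0.26 to 0.58). Leaving out 1 array gave, for bone marrow-derived minus white, 0 to 2 members higher and 0 to 4 lower (899 to 2137 genes higher, against 2170 with all arrays, and 850 to 2144 lower, against 2409). For bone marrow-derived minus brown it gave 0 to 1 members higher and 0 to 5 lower (61 to 1405 genes higher, against 1543, and 239 to 1723 lower, against 2068). For white minus brown it gave 0 to 2 members higher and 0 to 2 lower (0 to 1036 genes higher, against 686, and 5 to 1215 lower, against 946). Where limma called 0 members in both directions, 2 to 6 were at an unadjusted p under 0.05. Many of all 17720 genes reach that level too, so such counts, also those of the gene lists, do not set the genes apart. With all arrays, limma put 6 members and 6869 genes under it in bone marrow-derived minus white. These were 6 and 6364 in bone marrow-derived minus brown and 5 and 4625 in white minus brown. Without brown replicate 1 or brown replicate 2 limma called 0 genes higher there, with 2784 and 3232 genes of either direction at an unadjusted p under 0.05. Median centring left 0 members higher in bone marrow-derived minus brown and 2 lower in white minus brown. The mean of all probe sets, and a mean-variance trend, each gave 2 members higher in bone marrow-derived minus white. The trend also gave 3 lower there, 4 lower in bone marrow-derived minus brown and 2 lower in white minus brown, with Cebpa gained in both comparisons of bone marrow-derived adipocytes, Klf4 against white (limma adjusted p = 0.0441) and Cebpb in white minus brown (limma adjusted p = 0.0499). With each probe set as its own feature, 4019 rose and 4325 fell, 2754 rose and 3423 fell, and 1145 rose and 1566 fell in the 3 comparisons, over more features. Without moderation limma called 0 members in any comparison, where 3, 4 and 3 were at an unadjusted p under 0.05, and 254 genes higher and 301 lower, 296 and 665, and 0 and 0, where 6008, 5434 and 3880 were at an unadjusted p under 0.05. Array weights gave 2 members lower and 1092 genes higher in white minus brown. Fits of only the 2 groups compared gave 1 member lower with 1355 genes higher and 1372 lower for bone marrow-derived minus white, 0 members for bone marrow-derived minus brown (6 at an unadjusted p under 0.05), and 2 members higher, 2 lower and 1036 genes higher for white minus brown. With the replicate block, 1 member was lower in each comparison of bone marrow-derived adipocytes, since Stat5a (limma adjusted p = 0.0608 and 0.0623) and Srebf1 (0.0697) were not called. Except where named, the cause was not tested. The limits are 2 arrays per group, 1 reporter per bone marrow-derived array, no detection calls, and marker RNA of other cells that differs between groups, whose part was not tested.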
